A study of Mus musculus with 20 samples.

Results

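The genes described here are 10 markers of liver macrophages, read in separate resident and recruited sets. Resident macrophage (Kupffer cell) genes are Adgre1, Cd68, Clec4f, Marco, Timd4 and Cd5l, 6 in number, and recruited monocyte and macrophage genes are Ccr2, Ly6c2, Trem2 and Gpnmb, 4 in number. They were chosen by name from general knowledge of the cell types, and each Ensembl identifier of the count files was matched to its GENCODE M21 symbol. All 10 were found among the 46603 identifiers counted, and all 10 passed the filter on low counts.

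Whole liver RNA was measured by poly(A) RNA sequencing in 20 samples from 10 male mice aged 2 months, labelled C57BL6/J. Wild-type mice (WT) were bought from a vendor. Mice with the genotype EedHepKO (KO) carried a Cre transgene under the albumin promoter and an Eed allele floxed around exons 3 and 6, so recombination is directed at hepatocytes. Each genotype gave 5 baseline samples, from lobes 1, 2 and 3 taken out at partial hepatectomy (PHx), and 5 samples from lobes 4, 5 and 6 after PHx, of which 1 was collected at 30 h, 2 at 40 h and 2 at 48 h. Genotype and colony cannot be told apart, nor can the response to PHx and the lobe, and samples before and after PHx come from the same mice.

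Kupffer cells are the macrophages that live in the liver sinusoids, where they take up particles, dying cells and lipoproteins from portal blood. Monocytes leave the bone marrow through CCR2, enter injured liver and can become macrophages, some of which take on the lipid-associated state marked by TREM2 and GPNMB. EED is a core subunit of polycomb repressive complex 2, which methylates histone H3 and holds genes silent, and partial hepatectomy makes the remaining hepatocytes divide.

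Total counts per library ran from 21634890 to 30461351. Values per sample are CPM, counts per 1000000 of the TMM-scaled total of the tested genes. Eed, the targeted gene, ran from 14.6 to 23.2 CPM over the 10 WT libraries and from 2.75 to 7.52 CPM over the 10 KO libraries, with no overlap. The hepatocyte markers checked, among them Alb and Apoa1, were detected in every group. A gene is called where edgeR's quasi-likelihood test, two-sided, gave a Benjamini-Hochberg adjusted p under 0.05 over the 14661 genes tested. In whole tissue, more cells of a type and more RNA per cell cannot be told apart.

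In GRCm38 (mm10) the resident genes lie as follows: Adgre1 (ENSMUSG00000004730) at chr17:57358691-57483527 on the plus strand, Cd68 (ENSMUSG00000018774) at chr11:69664213-69666153 on the minus strand, Clec4f (ENSMUSG00000014542) at chr6:83644542-83656187 on the minus strand, Marco (ENSMUSG00000026390) at chr1:120474538-120505024 on the minus strand, Timd4 (ENSMUSG00000055546) at chr11:46810800-46844332 on the plus strand and Cd5l (ENSMUSG00000015854) at chr3:87357881-87371073 on the plus strand. The recruited genes are Ccr2 (ENSMUSG00000049103) at chr9:124101950-124113557 on the plus strand, Ly6c2 (ENSMUSG00000022584) at chr15:75108158-75111970 on the minus strand, Trem2 (ENSMUSG00000023992) at chr17:48346401-48354147 on the plus strand and Gpnmb (ENSMUSG00000029816) at chr6:49036546-49070929 on the plus strand. All 10 are protein coding, and 0 of them are overlapped by another gene in GENCODE M21.

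The promoters of Cd68, Trem2 and Gpnmb are shown because these were the members with an AP-1 match in the window searched. The matches in the stretches below were thus fixed by that choice. The same genes were the members called higher both in KO against WT at baseline and in WT after PHx. Their calls in WT after PHx were not stable: Cd68 lost it with limma-voom (adjusted p 0.059), Trem2 in 10 alternatives and Gpnmb in 6, among them the fit without WT replicate 3 after PHx (log2 of 1.08, 0.35). The stretches run from 160 bases before the RefSeq start site to 20 after it, 5′ to 3′ on the gene's strand, in GRCm38.p6. Capitals mark AP-1 matches. Cd68 lies on the minus strand (chr11:69666150-69666330), Trem2 on the plus strand (chr17:48346241-48346421) and Gpnmb on the plus strand (chr6:49036358-49036538).
Cd68: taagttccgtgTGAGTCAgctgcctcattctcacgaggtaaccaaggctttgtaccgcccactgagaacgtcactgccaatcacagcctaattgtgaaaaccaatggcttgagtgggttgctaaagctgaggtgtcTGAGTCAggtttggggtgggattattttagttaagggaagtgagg
Trem2: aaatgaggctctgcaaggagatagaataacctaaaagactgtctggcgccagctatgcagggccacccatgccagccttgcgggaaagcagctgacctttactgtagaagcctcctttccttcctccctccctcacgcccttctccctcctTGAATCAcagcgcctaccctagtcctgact
Gpnmb: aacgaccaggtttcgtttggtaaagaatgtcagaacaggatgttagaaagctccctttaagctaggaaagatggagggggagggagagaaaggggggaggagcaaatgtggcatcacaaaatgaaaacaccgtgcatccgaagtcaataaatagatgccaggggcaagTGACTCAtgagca

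The motif searched was TGANTCA on both strands, in windows of 250 bases before to 50 after each start. It stood in the promoters of these 3 genes, of the 9 members (all but Adgre1) matched in the RefSeq table, and in 7.81% of all 32851 promoters there. The letters GAGGAA, the core of PU.1 sites, were found in 5 of the 9 members, namely Cd68, Marco, Cd5l, Ly6c2 and Trem2, and in 28.3% of all promoters. TTGCNNAA, a C/EBP core, stood in Cd68 and Trem2 and in 10.8% of all promoters. The CLEAR E-box letters CACGTG had no match in a member, against 7.15% of all promoters. Nor had the M-box letters TCATGTG (3.77%) or the TATA box letters TATAAA (13.6%). A match describes the letters of the window and is not a measured site.

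At baseline the recruited genes were higher in KO livers than in WT livers. All 4 were called, with log2 fold changes from 2.51 to 4.18. For Ly6c2, Trem2 and Gpnmb no WT baseline library reached the level of the filter on low counts, and all 5 KO baseline libraries did. These genes entered the test through the groups in which they are higher, so the counts and the recruited median below are a description. Of the resident genes Cd68 was called and the other 5 were not, with log2 fold changes from 0.75 to 1.39. In all, 5 of 10 members were called, all higher, where 11.1% of the genes tested were called higher and 4.89% lower. The 2 genotypes did not overlap for 9 of 10 members, all but Marco and all higher in KO, where 27.9% of all genes did not overlap and 15.6% lay higher. The median log2 fold change was 3.48 over the recruited genes and 0.98 over the resident genes, against -0.03 over all genes tested. All 10 were higher in KO under each of the alternative settings run.

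Ccr2, the receptor through which monocytes follow CCL2, had 0.585, 0.350, 0.309, 1.01 and 0.413 CPM in WT replicates 1 to 5 at baseline. In KO replicates 7, 8, 10, 11 and 12 it had 12.4, 5.58, 3.86, 2.87 and 1.78 CPM. Every KO library lay above every WT library, and KO replicate 7 stood highest. On the log2 scale KO exceeded WT by 3.30 ± 0.69 (SE), 9.86-fold, with an adjusted p of 0.0028 in edgeR. The call held in every alternative, with log2 values from 2.78 to 3.83.

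Ly6c2 encodes one of the Ly6C surface proteins of classical monocytes, and its close copy Ly6c1 can cost it reads that map to both. Its WT baseline values were 0.130, 0.200, 0, 0.275 and 0.229 CPM, which rest on 0 to 6 counts per library. KO livers had 1.19, 1.01, 0.690, 1.08 and 0.939 CPM, which rest on 20 to 36 counts. The sets did not overlap, and the KO values lay close together. This made a log2 fold change of 2.51 ± 0.82 (SE), with an adjusted p of 0.042. It was also lost without the filter (2.57, 0.060). The call was lost when any 1 of the 10 baseline libraries was left out, where the adjusted p ran from 0.0579 to 0.0905 and the log2 value from 2.19 to 2.76.

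Trem2 encodes a lipid-sensing receptor of macrophages. Its values in WT were 0.520, 0.250, 0.0515, 0.275 and 0.0459 CPM, from 1 to 8 counts per library. In KO they were 5.71, 2.62, 2.28, 1.70 and 2.02 CPM, with KO replicate 7 far above the other 4. The groups did not overlap. The log2 fold change was 3.66 ± 0.65 (SE), 12.7-fold, with an adjusted p of 0.00063, and the call held in every alternative.

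Gpnmb, a glycoprotein of lysosomes and the cell surface in lipid-laden macrophages, had 0.520, 0.050, 0.0515, 0.229 and 0.0459 CPM in WT. In KO it had 6.21, 2.79, 2.86, 2.70 and 1.22 CPM. No WT value reached the lowest KO value. Its log2 fold change was 4.18 ± 1.05 (SE), 18.1-fold, with an adjusted p of 0.01, and the call held in every alternative, with log2 values from 3.84 to 4.98, the highest without WT baseline replicate 1. For Ly6c2, Trem2 and Gpnmb no WT baseline library reached the filter's 0.391 counts per 1000000 of the plain library total, without TMM scaling, and all 5 KO baseline libraries did, so these genes entered the test through the groups in which they are higher.

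**Figure D1:**
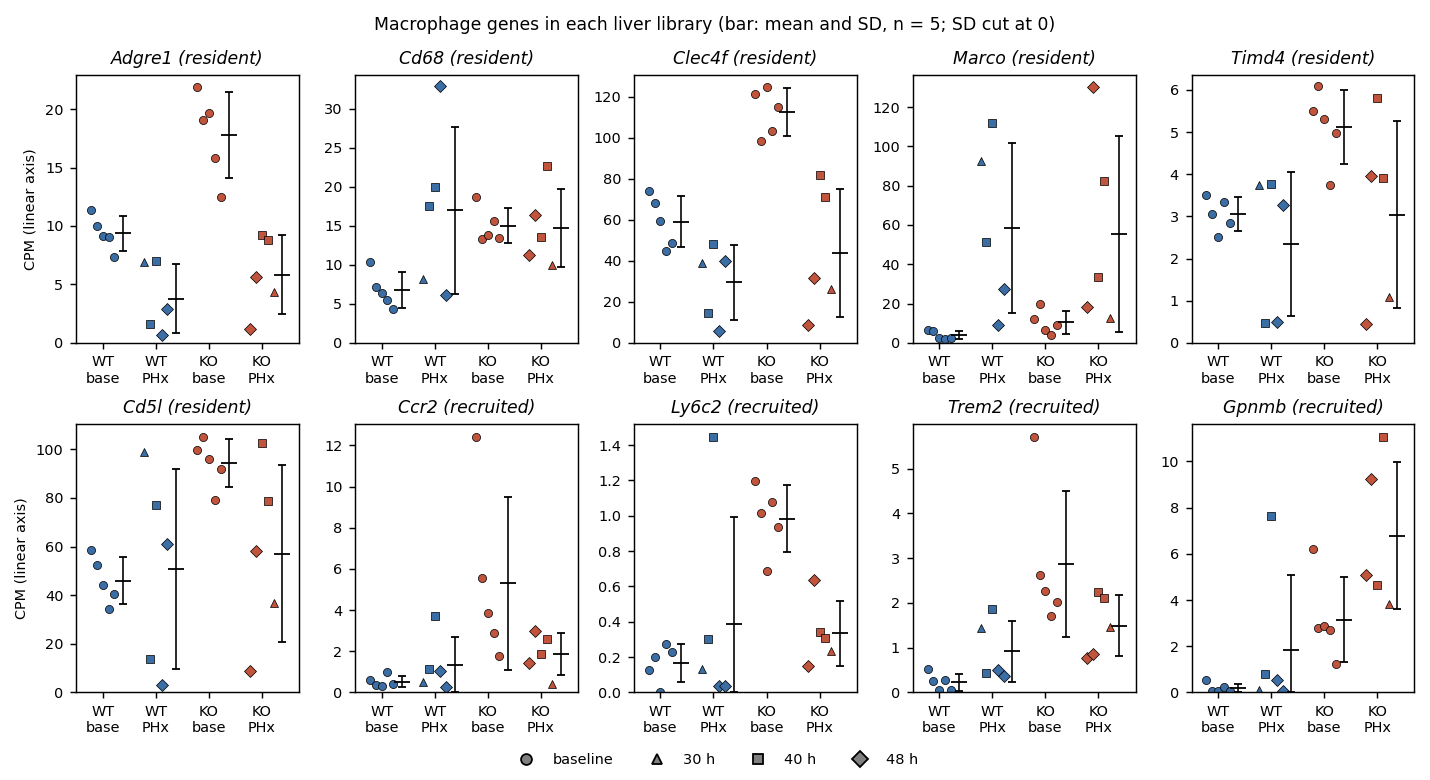
CPM of each member in each library (y axis, linear, from 0) by group (x axis), WT in blue and KO in red, with the symbol giving the time after PHx and the bar the mean and SD of 5 libraries. At baseline all KO points lie above all WT points except for Marco, and after PHx the genotypes overlap for all 10 genes.

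Among the resident genes, Cd68 encodes a lysosomal glycoprotein found in macrophages of all origins. It had 10.4, 7.10, 6.33, 5.50 and 4.31 CPM in WT and 18.7, 13.3, 13.8, 15.6 and 13.5 CPM in KO at baseline, with no overlap. Its log2 fold change was 1.16 ± 0.36 (SE), 2.23-fold, with an adjusted p of 0.034. Leaving out WT baseline replicate 2, 3, 4 or 5 or KO baseline replicate 7, 10 or 11 lost the call, with adjusted p from 0.0527 to 0.0867 and log2 values from 1.03 to 1.19.

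Clec4f, a lectin receptor made by Kupffer cells in the mouse, had 74.2, 68.1, 59.6, 45.0 and 48.9 CPM in WT and 121, 98.3, 125, 103 and 115 CPM in KO. Cd5l, a secreted protein of tissue macrophages that binds lipids and supports their survival, had 58.6, 52.6, 44.2, 34.5 and 40.4 CPM in WT. In KO, Cd5l had 99.8, 105, 95.8, 79.2 and 91.7 CPM. For both genes every KO library lay above every WT library. Their log2 fold changes were 0.93 ± 0.49 and 1.03 ± 0.61 (SE), with adjusted p of 0.21 and 0.26.

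Adgre1, which encodes the macrophage surface protein F4/80, had 11.4, 9.998, 9.11, 9.03 and 7.34 CPM in WT and 21.9, 19.1, 19.7, 15.8 and 12.4 CPM in KO. Timd4, a receptor for phosphatidylserine on dying cells that long-lived Kupffer cells carry, had 3.51, 3.05, 2.52, 3.35 and 2.84 CPM in WT and 5.51, 6.09, 5.31, 3.74 and 4.98 CPM in KO. Neither overlapped, though Timd4 came close, with KO replicate 11 at 3.74 and WT replicate 1 at 3.51 CPM. The log2 fold changes were 0.93 ± 0.51 and 0.75 ± 0.58 (SE), with adjusted p of 0.23 and 0.41.

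Marco, a scavenger receptor for bacteria and particles, had 6.63, 6.05, 2.62, 2.11 and 2.43 CPM in WT and 12.1, 19.8, 6.66, 4.07 and 9.20 CPM in KO. KO replicate 11 lay below 2 WT livers, and the other 4 KO livers lay above all of them. The log2 fold change of 1.39 ± 0.66 (SE) had an adjusted p of 0.16.

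Calls of the resident genes differed with the samples that entered the fit and, for Clec4f, with the scaling: with library size alone, where the median of all genes was 0.45, Clec4f was called at 1.43 (adjusted p 0.047). Fitted on the 10 baseline libraries alone, all 10 members were called, where 39.5% of 13286 genes were called. Adjusted p in that fit was 0.00081 for Adgre1, 0.00024 for Clec4f, 0.00014 for Cd5l, 0.0053 for Timd4 and 0.022 for Marco, while their log2 fold changes stayed between 0.77 and 1.43. Over all alternatives the adjusted p ran up to 0.34 for Adgre1, 0.33 for Clec4f, 0.39 for Cd5l, 0.53 for Timd4 and 0.38 for Marco.

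Per kilobase of exon, the order of the levels in WT at baseline was Clec4f at 23.9, Cd5l at 22.6, Cd68 at 5.35, Adgre1 at 2.89, Marco at 2.06 and Timd4 at 1.41 CPM per kb, followed by the recruited genes, from Ccr2 at 0.0789 to Gpnmb at 0.0275. Clec4f and Cd5l overlapped each other, as did each neighbouring pair from Cd68 down to Timd4, and every recruited gene lay below every resident gene. In KO at baseline Cd5l and Clec4f led at 46.3 and 45.6 CPM per kb, the recruited genes had means from 0.359 to 0.784, and the range of Ccr2, up to 1.84, reached that of Timd4, from 1.72. After PHx, Marco had the highest mean level in both genotypes, 30.4 in WT and 28.8 CPM per kb in KO, with ranges that overlapped those of Cd5l. Gpnmb was the highest recruited gene in KO after PHx, at 1.04 CPM per kb, above the ranges of Trem2, Ccr2 and Ly6c2.

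The other macrophage genes were read in 9 lists of 87 genes. Beside their counts at baseline, here and in the next paragraphs, 11.1% of all genes were called higher and 4.89% lower. Of 15 further Kupffer cell genes, 7 were called higher in KO at baseline and none lower, with a median log2 of 0.81. The complement genes C1qa, C1qb and C1qc and the receptor gene Csf1r rose by 1.15 to 1.25, whereas Vsig4 (0.83), Folr2 (0.38), Cd163 (0.17) and C6 (0.01) were not called. Of 12 factors and growth factor receptors 6 were called higher, among them Spi1, which encodes PU.1, at 1.53, Irf8 at 1.58 and the growth factor gene Csf1 at 1.26.

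Among genes of lipid-associated macrophages 8 of 12 were called higher, with a median log2 of 1.82. Mmp12, a macrophage elastase, rose by 5.34 ± 0.99 (SE, adjusted p 0.00098) and the tetraspanin gene Cd63 by 3.94 ± 0.60 (0.00015). Of TREM2 ligands, sheddases and signalling partners 3 of 7 were called higher, the adaptor gene Tyrobp at 1.31, the kinase gene Syk at 1.24 and Plcg2 at 1.57, while the ligand gene Apoe was at -0.23.

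Of the chemokine genes that draw monocytes 3 of the 4 tested were called higher. Ccl2, the ligand of CCR2, had 0.0917 to 0.734 CPM in WT and 1.60 to 9.39 CPM in KO, a log2 fold change of 4.07 ± 0.83 (SE, adjusted p 0.0022). Cx3cl1, the ligand of CX3CR1, had a log2 fold change of 3.81 ± 0.57 (0.00013). Monocyte genes were called higher for 4 of 11 tested, with a median of 2.10. MHC class II genes were called higher for 5 of 6, with a median of 1.48, and 2 of 8 genes of uptake of dead cells were called higher, Axl and Gas6. In the list of cytokines and effectors Il1rn, which encodes the interleukin-1 receptor antagonist, and Tgfb1 were called higher, and 1 gene of the 5 tested was called lower.

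Markers of other cells were read in the same fit at baseline, where 11.1% of all genes were called higher and 4.89% lower. All 5 general leukocyte genes were called higher, and their summed level ran from 18.6 to 30.5 CPM in WT and from 49.4 to 99.7 CPM in KO. Of dendritic cell genes 2 of 6 were called higher, of neutrophil genes 1 of 5, of stellate cell genes 5 of 8 and of sinusoidal endothelial genes 1 of 8, while 0 of 4 genes of T and NK cells and 0 of 4 of B cells were called (0 and 1 at an unadjusted p under 0.05). The neutrophil genes Ly6g, Ngp, Camp and Mpo were at 0 in all 5 WT baseline libraries, and Ly6g and Elane in all 5 KO baseline libraries. Hepatocyte genes were called lower for 3 of 8 and erythroid genes for 1 of 3, while 1 of 5 cholangiocyte genes and 1 of 4 genes of dividing cells were called higher. At an unadjusted p under 0.05 these were 4 of 5 and 4 of 4, with medians of 1.59 and 3.64. The part of these cells in the members' differences was not tested.

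**Figure D2:**
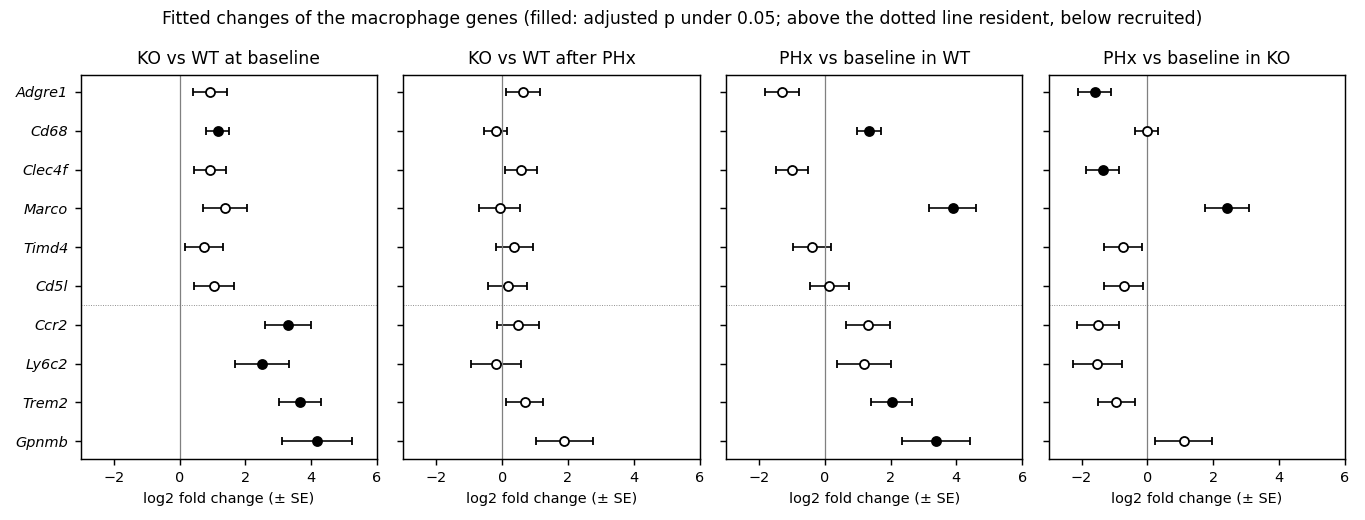
Fitted log2 fold change (x axis) with its SE for each member (y axis) in 4 comparisons, filled where the adjusted p is under 0.05. The recruited genes are filled and lie from 2.51 to 4.18 at baseline, no gene is filled between genotypes after PHx, and Marco is filled in the response to PHx of both genotypes.

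After PHx in WT livers, Marco, Cd68, Trem2 and Gpnmb were called higher and no member lower. That is 4 of 10, all higher, where 20.1% of all genes were called and 11.4% were called higher. Marco lay wholly above baseline and Adgre1 wholly below, 2 of 10 without overlap, where 17.8% of all genes did not overlap, 6.91% higher and 10.9% lower. Fitted on WT samples alone, 2 members were called, where 24.1% of 12775 genes were called. Gpnmb and Ly6c2 were removed by the filter in that fit and so were not tested. The median over the resident genes was -0.12 and over the recruited genes 1.67, against 0.04 over all genes.

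Marco had 92.3 CPM at 30 h, 51.6 and 112 at 40 h, and 9.11 and 27.4 at 48 h in WT replicates 1 to 5. The lowest of these lay above the highest baseline library, at 6.63. PHx livers differed from baseline by a log2 of 3.89 ± 0.72 (SE), 14.8-fold, with an adjusted p of 0.0012. The call held in every alternative.

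Cd68 had 8.20, 17.5, 20.0, 32.9 and 6.18 CPM in the same order. The 2 livers at 40 h and WT replicate 4 at 48 h were above every baseline liver, and the other 2 overlapped. The log2 fold change was 1.34 ± 0.36 (SE, adjusted p 0.014), and limma-voom gave 1.17 with an adjusted p of 0.059.

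Adgre1 had 6.89, 1.57, 6.96, 0.638 and 2.85 CPM and Clec4f had 38.9, 14.5, 48.1, 5.96 and 40.1 CPM. For both, WT replicates 2 and 4 were lowest. Adgre1 was not called at -1.31 ± 0.52 (SE, adjusted p 0.078), and neither was Clec4f at -1.002 ± 0.49 (0.16). Leaving out WT replicate 1 or 3 after PHx or KO replicate 7 after PHx brought Adgre1 under the threshold, at log2 values of -1.64, -1.65 and -1.27 and adjusted p of 0.040, 0.042 and 0.049. So did limma-voom (-1.80, 0.039) and leaving out the 30 h samples (-1.64, 0.040).

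Timd4 had 3.75, 0.478, 3.77, 0.496 and 3.26 CPM and Cd5l had 98.8, 13.96, 77.2, 3.19 and 60.9 CPM. WT replicates 2 and 4 were again lowest and lay below every baseline liver, whereas replicates 1 and 3 lay above every baseline liver. Neither was called, at -0.38 ± 0.58 and 0.14 ± 0.60 (SE), with adjusted p of 0.69 and 0.90.

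Trem2 had 1.44, 0.435, 1.86, 0.496 and 0.378 CPM after PHx in WT. Replicates 1 and 3 were above every baseline liver and the other 3 overlapped them. Trem2 rose by a log2 of 2.03 ± 0.63 (SE, adjusted p 0.028). With each mouse as a replicate block the adjusted p was 0.11 at a log2 of 2.12. Leaving out WT baseline replicate 2, 3, 4 or 5 or WT replicate 1 or 3 after PHx also lost the call, with adjusted p from 0.0505 to 0.0831 and log2 values from 1.60 to 2.12. So did limma-voom (2.03, 0.071), leaving out the 30 h samples (1.82, 0.058) and fitting WT samples alone (2.07, 0.05).

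Gpnmb had 0.0872, 0.783, 7.65, 0.532 and 0.0687 CPM. Replicate 3 stood far above the other 4, and replicates 1 and 5 lay within the baseline range. The log2 fold change of 3.39 ± 1.04 (SE, adjusted p 0.027) became 1.08 with an adjusted p of 0.35 without WT replicate 3 after PHx. It was also not called without WT baseline replicate 2, 3, 4 or 5 (log2 from 3.13 to 3.53, adjusted p from 0.0515 to 0.0667) or with limma-voom (1.87, 0.33).

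Ccr2 had 0.523, 1.13, 3.69, 1.06 and 0.275 CPM and Ly6c2 had 0.131, 0.304, 1.45, 0.0355 and 0.0343 CPM. WT replicate 3 was highest for both, and the other 4 lay near or within the baseline range. They were not called, at 1.32 ± 0.67 and 1.18 ± 0.82 (SE), with adjusted p of 0.17 and 0.33. Without WT replicate 3 after PHx the values were 0.48 for Ccr2 and -0.45 for Ly6c2.

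In KO livers after PHx Marco was called higher, and Adgre1 and Clec4f lower. That is 3 of 10, where 29.5% of all genes were called, 17.5% higher and 12.1% lower. Adgre1, Clec4f and Ly6c2 lay wholly below baseline, 3 of 10 without overlap, where 13.9% of all genes did not overlap and 7.73% lay lower. Without KO replicate 8 after PHx 0 of 10 members were called by edgeR, where 20.1% of all genes were called. The median was -0.74 over the resident genes and -1.22 over the recruited genes, against 0.10 over all genes. Over sinusoidal endothelial genes it was -0.72, with 3 of 8 wholly lower, and over hepatocyte genes -0.64, with 1 of 8 wholly lower. Stellate cell genes were at -0.09 and cholangiocyte genes at 2.59. In WT the sinusoidal and hepatocyte medians were -0.59 and -0.49.

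Marco had 18.3 and 130 CPM at 48 h (KO replicates 7 and 8), 33.6 and 82.5 at 40 h (10 and 11) and 12.6 at 30 h (12). Replicates 8, 10 and 11 were above every KO baseline liver and the others overlapped them. Marco rose by a log2 of 2.42 ± 0.67 (SE), 5.35-fold, with an adjusted p of 0.012, and it was 1.80 with 0.052 without KO replicate 8 after PHx.

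Adgre1 had 1.14, 5.60, 9.27, 8.84 and 4.36 CPM in KO replicates 7, 8, 10, 11 and 12, all below the lowest baseline liver. Its log2 fold change was -1.61 ± 0.51 (SE, adjusted p 0.025). The call was lost without KO replicate 7, 8 or 12 after PHx (-1.32, -1.59 and -1.52, with 0.056, 0.054 and 0.052), with the time term (-1.15, 0.16) and with library size alone (-1.33, 0.058).

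Clec4f had 8.48, 31.8, 81.9, 71.2 and 26.1 CPM, also wholly below baseline. At -1.36 ± 0.49 (SE) it had an adjusted p of 0.044. That call lay at the threshold. It was lost without any 1 of 12 libraries (WT baseline replicates 2 to 5, each KO baseline library and KO replicates 7, 8 and 12 after PHx), with adjusted p from 0.0503 to 0.0968 and log2 values from -1.41 to -1.06. The call of Clec4f was also lost with no filter (0.053), with KO samples alone (0.061), without the 30 h samples (0.097), with library size alone (0.10) and with the time term (-0.96, 0.22), and the lowest adjusted p of any alternative was 0.0134.

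Cd68 in KO after PHx had 11.2, 16.3, 13.5, 22.6 and 9.99 CPM, around its baseline range, with a log2 fold change of -0.02 ± 0.35 (SE, adjusted p 0.97). Timd4 had 0.450, 3.95, 5.80, 3.92 and 1.09 CPM and Cd5l 8.81, 58.1, 102, 78.8 and 37.0 CPM. KO replicates 7 and 12 were lowest for both, and KO replicate 10 was within the baseline range for both. Their log2 fold changes were -0.75 ± 0.57 and -0.73 ± 0.60 (SE), with adjusted p of 0.33 and 0.37.

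Of the recruited genes in KO, Ccr2 had 1.41, 3.01, 1.87, 2.59 and 0.426 CPM and Ly6c2 had 0.150, 0.637, 0.343, 0.306 and 0.237 CPM. Trem2 had 0.779, 0.857, 2.25, 2.11 and 1.47 CPM. Ly6c2 was below every baseline liver, and the other 2 genes overlapped baseline. None was called, at -1.50 ± 0.63, -1.52 ± 0.75 and -0.94 ± 0.55 (SE), with adjusted p of 0.076, 0.13 and 0.20. Ccr2 passed the threshold with DESeq2 (-1.51, 0.047) and without WT replicate 3 after PHx (-1.51, 0.047). Ly6c2 passed it when only KO samples were fitted (-1.52, 0.028).

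Gpnmb in KO after PHx had 5.09, 9.25, 4.65, 11.1 and 3.83 CPM. KO replicates 8 and 11 were above every baseline liver. Its log2 fold change of 1.10 ± 0.86 (SE) was not called, with an adjusted p of 0.33. With the time term Gpnmb was at 2.78, also not called (0.084).

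Within single mice, 9 mice had a number in the titles of both samples, 4 WT and 5 KO. Marco was higher after PHx in 9 of 9 of these mice, and Adgre1 and Clec4f were lower in 9 of 9. Cd68 and Trem2 were each higher in 4 of 4 WT mice, and in 2 and 1 of 5 KO mice. Ccr2 was higher in 3 of 4 WT mice and lower in 5 of 5 KO mice, and Ly6c2 was higher in 2 of 4 WT mice and lower in 5 of 5 KO mice. Gpnmb was higher in 4 of 4 WT and 4 of 5 KO mice. Timd4 and Cd5l went up in 2 of 4 WT mice and in 2 and 1 of 5 KO mice.

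**Figure D3:**
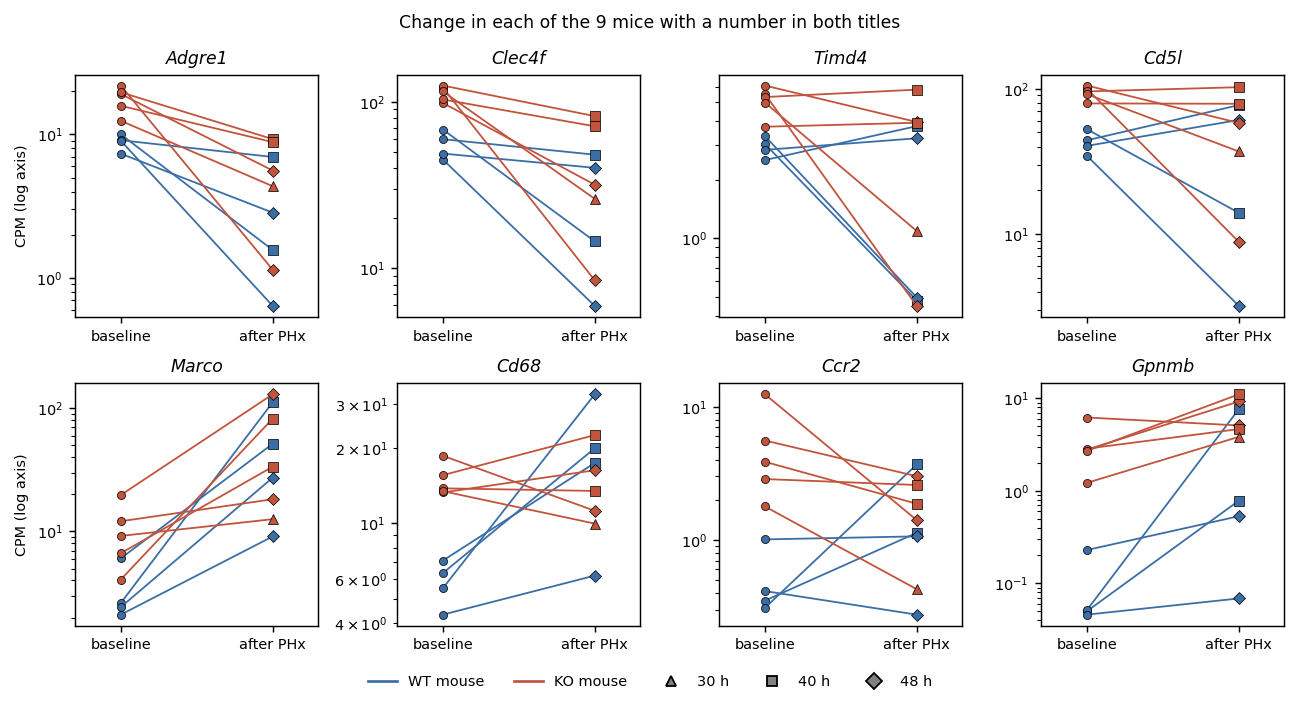
CPM (y axis, log scale) before and after PHx (x axis) for 8 members, with 1 line per mouse for the 9 mice numbered in both titles, WT in blue and KO in red. Marco rises in all 9 mice, Adgre1 and Clec4f fall in all 9, and Ccr2 falls in all 5 KO mice.

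The difference of the responses, KO minus WT, was called for 0 of 10 members by edgeR, where 0.389% of all genes were called. All 10 differences were negative, from -2.97 for Trem2 to -0.30 for Adgre1, but Adgre1, Timd4 and Gpnmb reached 0.20, 0.07 and 0.02 in at least 1 alternative, Gpnmb without WT replicate 3 after PHx. At an unadjusted p under 0.05 there were 4, Ccr2 (-2.82 ± 0.92, SE, adjusted p 0.19), Ly6c2 (-2.70 ± 1.11, 0.29), Trem2 (-2.97 ± 0.84, 0.13) and Cd68 (-1.36 ± 0.50, 0.24). DESeq2 called Trem2 at -3.01 (adjusted p 0.022), and so did edgeR without KO replicate 10 after PHx at -3.17 (0.044). Over all alternatives the adjusted p for Trem2 ran from 0.022 to 0.39. Without WT replicate 3 after PHx the difference was -1.99 for Ccr2 (adjusted p 0.33) and -1.07 for Ly6c2 (0.70). This difference and the comparison of the genotypes at baseline share the baseline samples.

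Between genotypes after PHx 0 of 10 members were called by edgeR, where 24.2% of all genes were called, and 0 of 10 were without overlap, where 7.05% of all genes lay wholly higher in KO and 2.97% wholly lower. At an unadjusted p under 0.05 there was 1, Gpnmb, at 1.89 ± 0.88 (SE, adjusted p 0.12). The other 9 had log2 fold changes from -0.20 for Cd68 to 0.69 for Trem2, with SE from 0.35 to 0.76. Gpnmb turned on WT replicate 3, the only WT liver of 5 that reached the KO range. Without it the log2 fold change was 4.19 with an adjusted p of 0.00081, and Gpnmb was also called with the time term (3.10, 0.020) and with limma-voom (3.71, 0.0019).

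Time points were also compared apart, with 2 livers per genotype at each. At 40 h no member was called by edgeR, where 13.3% of all genes were called, and none had an unadjusted p under 0.05. At 48 h Gpnmb was higher in KO, at 4.56 ± 1.17 (SE, adjusted p 0.011), and so was Ly6c2, at 3.35 ± 1.11 (0.038), 2 of 10 where 24.3% of all genes were called and 13.7% were called higher. For Ly6c2 the WT livers at 48 h hold 1 count each and the KO livers 5 and 29. At 40 h its log2 fold change was -1.43 ± 0.87 (SE, adjusted p 0.28). The difference between the 40 h and 48 h comparisons was not tested.

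The 10 livers after PHx differed widely from each other. Clec4f spanned 13.8-fold between the lowest and the highest library, Timd4 12.9-fold, Adgre1 14.5-fold and Cd5l 32.1-fold. The 4 lowest libraries were the same for Clec4f, Timd4 and Cd5l, namely WT replicates 2 (40 h) and 4 (48 h) and KO replicates 7 (48 h) and 12 (30 h). They come from both genotypes and all 3 time points. Timd4 was at or under 1.09 CPM in these and at or over 3.26 CPM in the other 6. The 4 lowest of Adgre1 and of Marco each held 3 of these libraries, with WT replicate 5 in place of KO replicate 12 and of WT replicate 2. Among other Kupffer cell genes, Vsig4 and Folr2 also held 3 of the 4. Cd68 did not follow: WT replicate 4, the lowest for Clec4f, was the highest for Cd68 at 32.9 CPM.

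Other genes were read in the same libraries, and some ran with the order of Clec4f and some against it. The integrin gene Itgal, on lymphocytes and macrophages, had its 4 lowest values in the same libraries. Mki67, a gene of dividing cells, did too, with 0.217, 0.284, 3.42 and 3.65 CPM in WT replicates 2 and 4 and KO replicates 7 and 12, and 8.17 CPM or more in the others. Genes of sinusoidal endothelium did not share 1 order. Clec4g, Kdr and Stab2 each had 3 of these 4 libraries among their 4 lowest, with Clec4g at 1.98 CPM in KO replicate 7 and 50.4 CPM in KO replicate 10. Lyve1, a hyaluronan receptor of the same cells, had 3 of the 4 among its 4 highest, and ran from 2.44 CPM in WT replicate 5 to 53.1 CPM in KO replicate 8. Cd14, a receptor for bacterial lipopolysaccharide, also had 3 of the 4 among its 4 highest, and ran from 0.436 CPM in WT replicate 1 to 565 CPM in KO replicate 7. The neutrophil genes S100a8 and S100a9 had 2 and 3 of the 4 among their 4 highest. Their part in the members' spread was not tested.

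**Figure D4:**
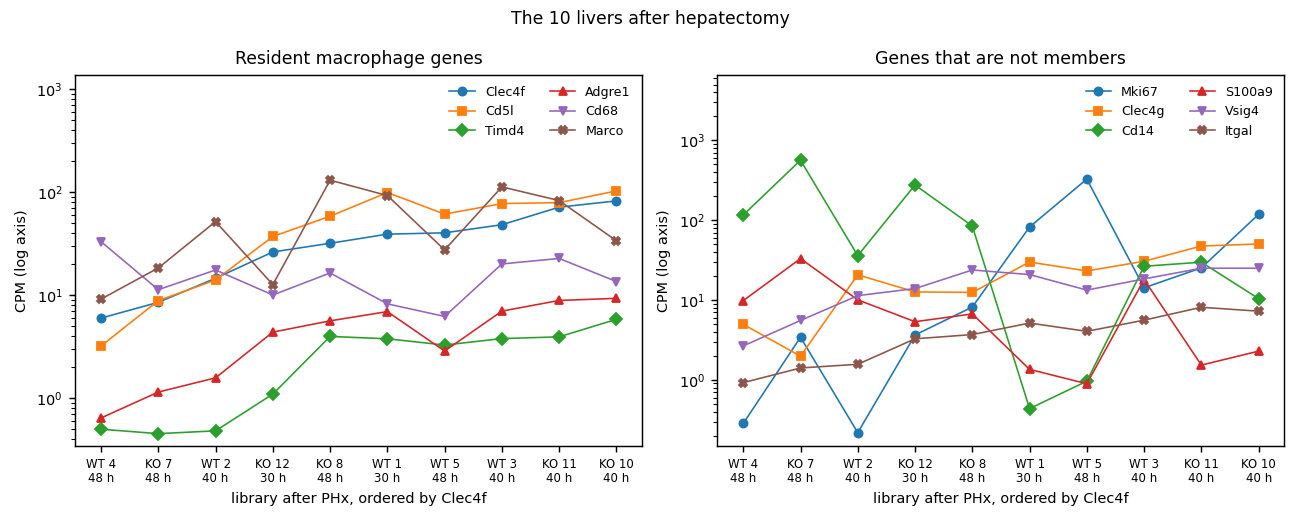
CPM (y axis, log scale) in the 10 libraries after PHx, ordered by Clec4f (x axis), for the 6 resident genes on the left and 6 other genes on the right. Clec4f, Cd5l and Timd4 have their lowest values in the same 4 libraries, Cd68 is highest in WT replicate 4, and Mki67 is under 4 CPM in the 4 libraries on the left.

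The context lists after PHx showed 2 directions. Beside the counts here and in the next paragraphs, 11.4% of all genes were called higher after PHx in WT and 1273 of 14661 lower. In KO 17.5% were called higher and 12.1% lower. All 6 MHC class II genes were called lower after PHx in both genotypes, with a median log2 of -2.16 in WT and -2.11 in KO. H2-Aa, a class II chain, had 16.6 to 31.9 CPM in WT at baseline and 2.16 to 10.3 after PHx, and 50.9 to 94.0 and 7.23 to 36.5 CPM in KO. Between genotypes after PHx 5 of 6 were called higher in KO, with a median of 1.54, where 2342 of 14661 genes were called higher and 1202 lower. At 40 h and 48 h apart 0 and 5 of 6 were called (3 and 5 at an unadjusted p under 0.05). Of all genes 13.3% and 24.3% were called at these times. Monocyte genes were called higher in WT for 6 of 11 and lower for none, with Chil3, a secreted lectin of myeloid cells, at 7.63 ± 1.63 (SE, adjusted p 0.0033), Cd14 at 4.94 ± 1.26 (0.010) and the transglutaminase gene F13a1 at 4.42 ± 1.14 (0.011). In KO 2 were called higher, Chil3 (4.10) and Cd14 (3.56), and 3 lower, Ms4a4c, Lyz2 and Itgal. The list is not particular to monocytes. Over the 20 libraries Itgal was the gene nearest to Clec4f (Pearson's r of 0.968), and Lyz2 was the second nearest to Adgre1 (0.945).

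Lipid-associated genes were called in both directions. In WT 3 of 12 were called higher, with Cd63 at 4.05 ± 0.60 (SE, adjusted p 0.00020), and 2 lower. In KO 1 was called higher, Cd63 at 1.55, and 3 lower, Mmp12 (-2.63), Itgax (-2.57) and Lpl (-1.63). Among chemokine genes Ccl2 and Ccl7 were called higher in WT, at 3.90 and 2.94, and in KO they had values of -0.74 and -0.01 that were not called. Cx3cl1 was called higher in KO, at 1.72 ± 0.48 (SE, adjusted p 0.014), and had a value of 0.66 in WT that was not called. Ccl5, which also draws T cells, was called lower in both, at -2.11 and -2.46. None of these lists had a gene called for the difference of the responses, where 0.389% of all genes were called.

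Other Kupffer cell genes were called higher for 1 of 15 (Cd38) and lower for 2 (C6 and Csf1r) in WT, and the same counts and genes held in KO, with medians of -0.38 and -0.66. Of all genes, 11.4% were called higher in WT, and 17.5% higher and 12.1% lower in KO, so these counts lay near or under the shares. In KO 6 of the 15 lay wholly below baseline, where 7.73% of all genes did. In WT this held for 1 of the 15, where 10.9% of all genes did. Of 12 factors and receptors 1 was called higher (Csf2rb) and 1 lower in WT, and 1 higher (Il34) and 2 lower (Irf8 and Maf) in KO, also near or under the shares. Il34, a ligand of CSF1R, was at 0.137 to 1.24 CPM in WT and 2.14 to 38.7 CPM in KO after PHx, a difference of 3.82 ± 0.69 (SE, adjusted p 0.00052). Cx3cl1 was higher in KO after PHx by 4.87 ± 0.57 (7.3e-06), Plcg2 by 2.74 ± 0.53 (0.00095) and Lpl by 2.29 ± 0.45 (0.00098).

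**Figure D5:**
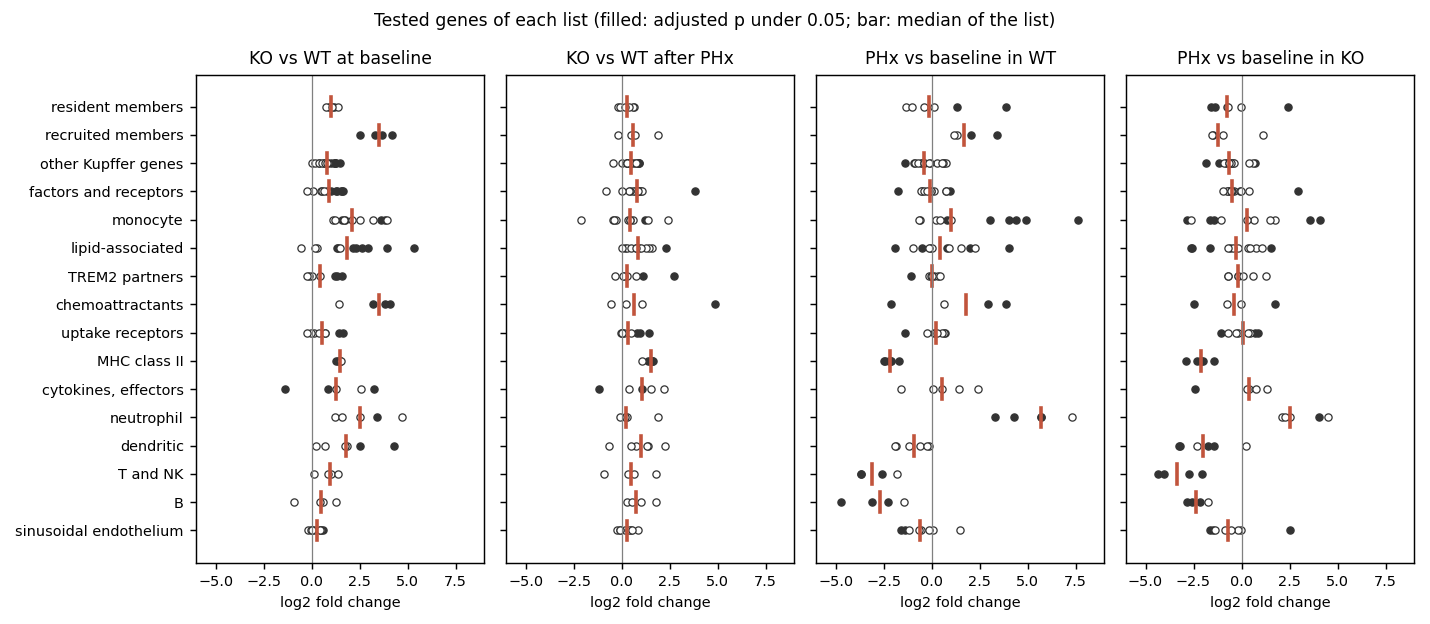
Log2 fold change (x axis) of each tested gene of 16 lists (y axis) in 4 comparisons, filled where the adjusted p is under 0.05, with the median of each list as a bar. The recruited members lie to the right at baseline with a median of 3.48, and MHC class II genes lie to the left after PHx in both genotypes.

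Genes most like the members were ranked by Pearson's r of log2(CPM + 1) over the 20 libraries among 12530 genes, members left out. This is a description, since the libraries share mice, groups and depth. For the mean of the resident genes these were Tmsb4x (0.941), Sdc3 (0.933), 2510009E07Rik (0.92), Treml4 (0.908) and Vsig4 (0.906). For the mean of the recruited genes they were Sprr1a (0.928), Coro1a (0.926), Plek (0.916), Itgb2 (0.912) and Slc11a1 (0.91). The nearest gene to Clec4f and to Adgre1 was Itgal (0.968 and 0.952), to Cd5l Vsig4 (0.93), to Timd4 Bin2 (0.925), to Gpnmb Capg (0.938), to Ccr2 Plek (0.934), to Trem2 Tmem176b (0.874), to Ly6c2 Mmp12 (0.87), to Marco Mpzl3 (0.876) and to Cd68 Gskip (0.853). With the 4 group means taken out, r was 0.907 to 0.965 for the genes named for the resident mean. It was 0.755 to 0.888 for those of the recruited mean. For the nearest genes of single members it ran from 0.707 (Ly6c2) and 0.716 (Trem2) to 0.967 (Clec4f).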

How the data were processed

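The values deposited by the authors are raw read counts for each Ensembl identifier, without normalisation. The series' design text gives FastQC 0.11.5 for quality, fastp 0.20.0 for trimming, mm10 as the genome, and counting of uniquely mapped reads, in which genes with close copies lose reads. The submitters' processing notes name Trimmomatic 0.36 and no fastp. The aligner, counting program, strand setting and annotation are not given in the sources used here. Symbols came from GENCODE M21 (46005 of 46603 identifiers), promoters from RefSeq (GRCm38.p6). Among the 20 libraries, 0 pairs held identical values.

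Counts were tested with edgeR 4.0.16 in R 4.3.3: TMM scaling, filterByExpr on the 4 groups, and 1 quasi-likelihood fit of all 20 samples with 4 group means; a second fit took a mean for each genotype and time. SE is the log2 fold change divided by the root of F. Alternatives were DESeq2 1.42.0, limma-voom 3.58.1, other scalings and filters, the compared samples alone, a time term, a block for the mouse, each library left out, and, chosen after seeing the data, the 30 h samples left out. Members and lists were chosen with earlier results of these data known. Besides the members, the rule names in each comparison 4 called genes of the context lists from each end of the log2 fold changes, at 1 CPM or more in the higher group, plus the 5 genes most like each pattern. Other genes of a list are given as examples chosen after their values were seen. Some genes that the rule names are not reported here.

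The pairing comes from the labels, which call the excised lobe of each mouse its baseline; 9 mice have a number in both titles, and WT baseline replicate 1 has none. Residuals of the same mouse correlated at -0.05 to 0.15 (median 0.04, 9 pairs), and those of other pairs at -0.23 to 0.26 (median -0.02, 41 pairs).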

Additional observations from a re-analysis of the deposited data

Results flagged for a closer look

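Of the 40 sets of 5 values (10 members in 4 groups), 4 had a library farther from the others than chance gives in about 1 of 20 sets. Some flags are thus due by chance among 40 sets. The values were CPM on a linear scale, and 3 of the 4 flags rest on 1 library, so they are not separate. In WT after PHx replicate 3 was the far library for 3 recruited genes, with 3.69 CPM of Ccr2 (next 1.13), 1.45 CPM of Ly6c2 (next 0.304) and 7.65 CPM of Gpnmb (next 0.783). In KO at baseline replicate 7 was the far library for Trem2, with 5.71 CPM (next 2.62). In WT after PHx replicate 3 also had the highest summed leukocyte (42.3 CPM), neutrophil (44.3) and cholangiocyte genes (239). It did not lead for monocyte genes (136, against 146 in replicate 4) or B cell genes. KO replicate 7 at baseline led its group for the same sums (99.7, 8.23 and 359 CPM), but not for T and NK or B cell genes. The part of these cells was not tested.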

How the results depend on the processing

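Over 32 settings, 1360 of 1482 alternative values for single genes kept their direction and side of the threshold, 58 lost the call, 20 gained one and 44 changed sign. None of these 44 belongs to the comparison at baseline, and the cause was not tested. At baseline, 5 members were called, and 3 to 5 with a library left out. A fit of the baseline libraries alone called 10, where 39.5% of 13286 genes were called, and library size alone called 6. With library size alone 3521 of 14661 genes were called higher and 113 lower, against 1631 and 717 in the main fit. The share of all genes called is not given beside every count here or for the mouse block. A changed count is therefore not by itself a result about the members. After PHx the count was 0, but 1 with the time term or limma-voom, 2 at 48 h alone, and 0 to 1 with a library left out. In the WT response it was 4, but 2 with limma-voom, and 2 to 5 with a library left out. A fit of WT libraries alone, in which Gpnmb and Ly6c2 were not tested, also called 2, where 24.1% of 12775 genes were called. In the KO response the count was 3, but 1 with library size alone or the time term, and 0 to 4 with a library left out. For the difference it was 0, but 1 with DESeq2, and 0 to 1 with a library left out. There DESeq2 called 186 genes higher and 166 lower of 25520, against 24 and 33 of 14661 in the main fit.

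Of the sign changes in KO against WT after PHx, library size alone gave 0.25 for Cd68, 0.47 for Marco and 0.26 for Ly6c2. The time term gave 0.088 for Marco and 0.56 for Ly6c2, and limma-voom 0.012 for Cd68 and 0.88 for Ly6c2. At 48 h alone the values were -0.19 for Clec4f, 2.03 for Marco and 3.35 for Ly6c2, the last of them called, and at 40 h alone -0.12 for Ccr2. Without the 30 h samples Marco was at 0.40. With a library left out, Cd68 ran from -0.44 to 0.16, Marco from -0.68 to 0.29, Cd5l from -0.16 to 0.55 and Ly6c2 from -0.58 to 1.43. In the WT response Timd4 was at 0.014 with library size alone and 0.018 with the time term, and Cd5l at -0.64 with limma-voom and -0.24 without the 30 h samples. There, with a library left out, Cd5l ran from -0.24 to 0.50 and Ly6c2 from -0.45 to 1.53. In the KO response Cd68 was at 0.29 with library size alone, 0.21 with the time term and 0.086 without the 30 h samples, and ran from -0.26 to 0.087 with a library left out. For the difference, leaving out the 30 h samples gave 0.12 for Adgre1 and 0.065 for Timd4. With a library left out, Adgre1 ran from -0.63 to 0.041 and Gpnmb from -3.10 to 0.017.

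With each mouse as a replicate block the WT response called 3 members, and no call but that of Trem2 changed. Under the block Cd5l was at -0.92 in the WT response and Adgre1 at 0.20 for the difference, both with a changed sign and not called. Library size alone moved the median of all genes at baseline from -0.03 to 0.45 and the share of higher among the calls from 69.5% to 96.9%; upper-quartile scaling gave 0.12 and 85.4%. That share under library size alone was 92.9%, 86.7%, 80.9% and 15.8% after PHx, in the WT and KO responses and for the difference, against 66.1%, 56.8%, 59.1% and 42.1%. For the difference it was 23.5% with upper-quartile scaling and 52.8% with DESeq2. The difference could not be fitted on the compared samples alone, Ly6c2 fell under the 1 CPM filter, it was also removed by the filter in the fits of PHx or WT libraries alone, and Gpnmb in the latter. Counts of 0 to 8 per WT baseline library limit Ly6c2, Trem2 and Gpnmb.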

Other observations

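Among other leukocytes, lymphocyte genes were lower after PHx. Beside the counts below, 11.4% of all genes were called higher and 1273 of 14661 lower in WT. In KO 17.5% were called higher and 12.1% lower. All 4 tested genes of T and NK cells were called lower in KO and 3 of 4 in WT, with Cd3g, a chain of the T cell receptor complex, at -3.66 in WT and -4.36 in KO. B cell genes were called lower for 3 of 4 in both genotypes, with Ms4a1, which encodes CD20, at -4.73 in WT and -2.85 in KO. Dendritic cell genes were called lower for 4 of 6 in KO, among them Xcr1 at -3.25, and for 0 of 6 in WT by edgeR (0 at an unadjusted p under 0.05). Neutrophil genes were called higher for 4 of 5 in WT, with S100a8 at 5.70, and for 1 of 5 in KO, Retnlg at 4.01. At an unadjusted p under 0.05 the neutrophil count was 5 of 5 in both genotypes, with medians of 5.70 in WT and 2.52 in KO. Genes of dividing cells were called higher for 4 of 4 in WT, with a median log2 of 6.04, and for 0 of 4 in KO by edgeR (1 at an unadjusted p under 0.05), with a median of 1.37. Cholangiocyte genes were called higher for 3 of 5 in KO and 0 of 5 in WT (2 at an unadjusted p under 0.05). No gene of these lists was called for the difference of the responses by edgeR, where 0.389% of all genes were called. In that test 1 neutrophil gene, 1 cholangiocyte gene and 2 genes of dividing cells had an unadjusted p under 0.05.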
